A study of Mus musculus with 16 samples.

Results

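The transcripts described here encode the machinery of mitosis and chromosome segregation, and they were followed in DN3 and ISP8 thymocytes of PKBα-/- mice and their wild-type littermates. The set was a list of 46 gene symbols. A gene was represented by the probe set annotated to its symbol alone, and, where several were, by the brightest of them (highest log2 mean over all 16 arrays). Of the 46 genes, 45 were measured, out of 18194 gene symbols on the array. Ccnb1, which encodes cyclin B1, was matched to no probe set and was not analysed here. The measured genes were sorted by role into 8 kinases, cyclins and phosphatases of mitotic entry, 3 subunits of the chromosomal passenger complex, 9 genes of the spindle checkpoint, the anaphase-promoting complex and separase, 8 centromere and kinetochore genes, 9 kinesins and spindle proteins, 6 condensin and topoisomerase genes and 2 genes of cytokinesis.

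Mitosis is driven by the kinase CDK1 bound to A- and B-type cyclins, with the Polo-like and Aurora kinases acting beside it. Condensins and topoisomerase II compact and untangle the chromosomes, kinetochores attach them to spindle microtubules, and the spindle checkpoint holds the anaphase-promoting complex in check until every chromosome is attached. Separase then opens cohesin, and the anillin ring and the central spindle divide the cell. Transcripts of most of these genes are low in G1 and high in G2 and M, so they are widely used as markers of dividing cells. In the thymus, DN3 cells are CD4- CD8- precursors that rest while the TCRβ locus is rearranged, and those that pass β-selection divide rapidly through DN4 and the immature CD8+ single positive stage, ISP8, before they become double positive.

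Each of the 8 mice gave both subsets, so that 4 arrays were obtained for each of the groups wild-type DN3, PKBα-/- DN3, wild-type ISP8 and PKBα-/- ISP8. All mice carried the strain label C57Bl/6 backcross, so that part of the genome may come from another strain, no treatment is named for them, and the PKBα-/- mice lacked the gene in the whole body and from the start of life, so cells other than thymocytes lacked it too. The 4 pairs of littermates, 1 PKBα-/- and 1 wild-type mouse each, are numbered here as follows: pair 1 was female and 3 weeks old, pair 2 male and 3 weeks old, pair 3 male and 2 weeks old, and pair 4 female and 5 weeks old. DN3 cells were sorted as CD25+ CD44- cells without lineage markers and ISP8 cells as CD8+ CD4- CD3- cells, from 7000 to 25000 of them per sample and the same number within a pair. The array numbers in the sample titles set the ISP8 arrays apart from the DN3 arrays and followed the pairs within a subset, so array order cannot be told apart from subset or from pair.

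The values are GC-RMA values on a linear scale, and the array median lay between 55.1 and 70.5. Akt1, which encodes PKBα, was at 1198 to 2211 in wild-type and at 2.01 to 27.3 in PKBα-/- arrays. Il2ra, which encodes CD25, was at 8133 ± 1053 (SD, n = 4) in wild-type DN3 and at 185 ± 74.5 in wild-type ISP8 cells, while Cd8a rose from 208 ± 66.6 to 5152 ± 622. Of 10 DN3 markers measured, 9 were lower in wild-type ISP8 cells, and Cd4 had a mean of 60.5 there. Of the 5 ISP8 markers, Cd8a and Cd8b1 were higher in ISP8 cells, Cd24a and Cd27 were lower, by 0.25 and 0.66 on the log2 scale, and Ccr9 did not pass. The number of arrays limits the precision.

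A promoter window from 250 bases before to 50 after the start of transcription was at hand for 37 of the 45 measured genes (RefSeq, build GRCm38.p6), and in these windows 3 motifs were counted on both strands. The motif TTTGAA is the core of the cell cycle genes homology region, or CHR, an element of late cell cycle promoters. It was found in 26 of the 37 windows (70.3%), against 18.1% of all 27025 mouse windows. CCAAT, the box bound by NF-Y, was in 27 windows (73.0%, against 37.9% of all), and 23 windows (62.2%) held both motifs, against 7.12% of all. TTCCCGC, a form of the E2F site, was in 3 windows (8.11%, against 4.66%). No TTTGAA match overlapped a CCAAT match in the 37 windows. A match is a description of the letters and not a mapped site. Of the promoters printed below, 170 bases before to 30 after the start are given, 5′ to 3′ on the strand of the gene, with TTTGAA and CCAAT, or their reverse complements TTCAAA and ATTGG, in capitals. They are shown because the genes are followed singly below: 5 of them carry the motifs, and Nusap1, whose transcript rose by 2.60 on the log2 scale in wild-type cells, carried none.
Cdk1: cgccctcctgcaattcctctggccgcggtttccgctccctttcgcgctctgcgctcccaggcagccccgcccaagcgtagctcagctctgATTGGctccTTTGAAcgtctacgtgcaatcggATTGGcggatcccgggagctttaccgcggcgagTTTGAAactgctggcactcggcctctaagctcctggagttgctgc
Ccnb2: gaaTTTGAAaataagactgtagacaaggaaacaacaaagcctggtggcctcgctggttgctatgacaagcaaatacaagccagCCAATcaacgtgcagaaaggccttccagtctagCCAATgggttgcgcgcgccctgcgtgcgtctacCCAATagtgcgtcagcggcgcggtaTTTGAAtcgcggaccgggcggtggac
Plk1: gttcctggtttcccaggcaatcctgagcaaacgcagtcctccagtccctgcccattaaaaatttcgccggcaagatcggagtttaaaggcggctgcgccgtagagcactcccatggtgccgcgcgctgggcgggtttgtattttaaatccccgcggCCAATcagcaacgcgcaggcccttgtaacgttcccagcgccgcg
Cdc20: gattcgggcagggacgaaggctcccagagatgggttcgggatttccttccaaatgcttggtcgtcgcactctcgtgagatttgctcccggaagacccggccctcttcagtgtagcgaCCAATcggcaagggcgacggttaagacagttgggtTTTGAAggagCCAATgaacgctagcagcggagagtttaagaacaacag
Top2a: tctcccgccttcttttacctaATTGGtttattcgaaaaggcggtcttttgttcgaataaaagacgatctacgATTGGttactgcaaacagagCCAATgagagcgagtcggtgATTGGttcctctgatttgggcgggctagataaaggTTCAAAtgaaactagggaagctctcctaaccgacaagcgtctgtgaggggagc
Nusap1: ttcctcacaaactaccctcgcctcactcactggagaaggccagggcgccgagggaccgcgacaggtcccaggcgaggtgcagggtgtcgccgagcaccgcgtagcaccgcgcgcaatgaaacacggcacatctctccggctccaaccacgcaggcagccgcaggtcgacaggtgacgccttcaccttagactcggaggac
The Cdk1 promoter lay at chr10:69352883-69353082 on the minus strand, and its whole window held 2 TTTGAA and 3 CCAAT matches. Ccnb2 (chr9:70421525-70421724, minus strand) also held 2 and 3, Cdc20 (chr4:118437314-118437513, minus strand) held 1 and 2, and Top2a (chr11:99024160-99024359, minus strand) held 2 and 6, some of them outside the stretch printed. In Plk1 (chr7:122159265-122159464, plus strand) the single TTTGAA began at base 31 after the start, just past the printed end, beside 1 CCAAT. Nusap1 (chr2:119618128-119618327, plus strand) held none of the 3 motifs. Neither TTTGAA nor CCAAT was found for Birc5, Mad2l1, Ncaph, Nuf2, Plk4 and Pttg1 either.

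The comparison of ISP8 with DN3 cells asked how the mitotic transcripts moved across the transition that follows β-selection. In wild-type cells all 45 genes were higher in ISP8 than in DN3 cells at an adjusted p under 0.05 (limma, 4 mice, adjusted over 34506 probe sets), where 11.6% of all probe sets tested were. For 42 genes the rise was over 2-fold, against 3.65% of all probe sets. For 22 it was over 4-fold, a count that was not made over all probe sets. The median change was 1.99 on the log2 scale, or 3.97-fold, while the median over all probe sets was -0.087. Changes ran from 0.29 for Smc4 to 2.71 for Kif2c, with adjusted p from 6.44e-09 to 0.0111. In 44 of 45 genes the lowest of the 4 ISP8 values lay above the highest of the 4 DN3 values, against 10.6% of all probe sets, and Smc4 was the exception. As the samples are bulk sorted cells, a larger share of dividing cells and more of these transcripts in each cell cannot be told apart.

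In PKBα-/- cells the mitotic genes moved the same way, with a median close to that of wild-type cells. All 45 genes were higher in ISP8 cells (limma, 34038 probe sets, adjusted p 8.50e-10 to 0.00792), against 11.9% of all probe sets. Again 42 rose over 2-fold, against 3.63%, and in 44, all but Smc4, the groups were apart, against 11.4%. Over 4-fold there were 22, a count again not made over all probe sets. The median change was 1.96, or 3.89-fold, with a range from 0.26 for Smc4 to 2.81 for Ube2c. Across the 45 genes the changes in the 2 genotypes had a Pearson's r of 0.947 and a Spearman's rho of 0.914, a description across genes that come from the same arrays.

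**Figure D1:**
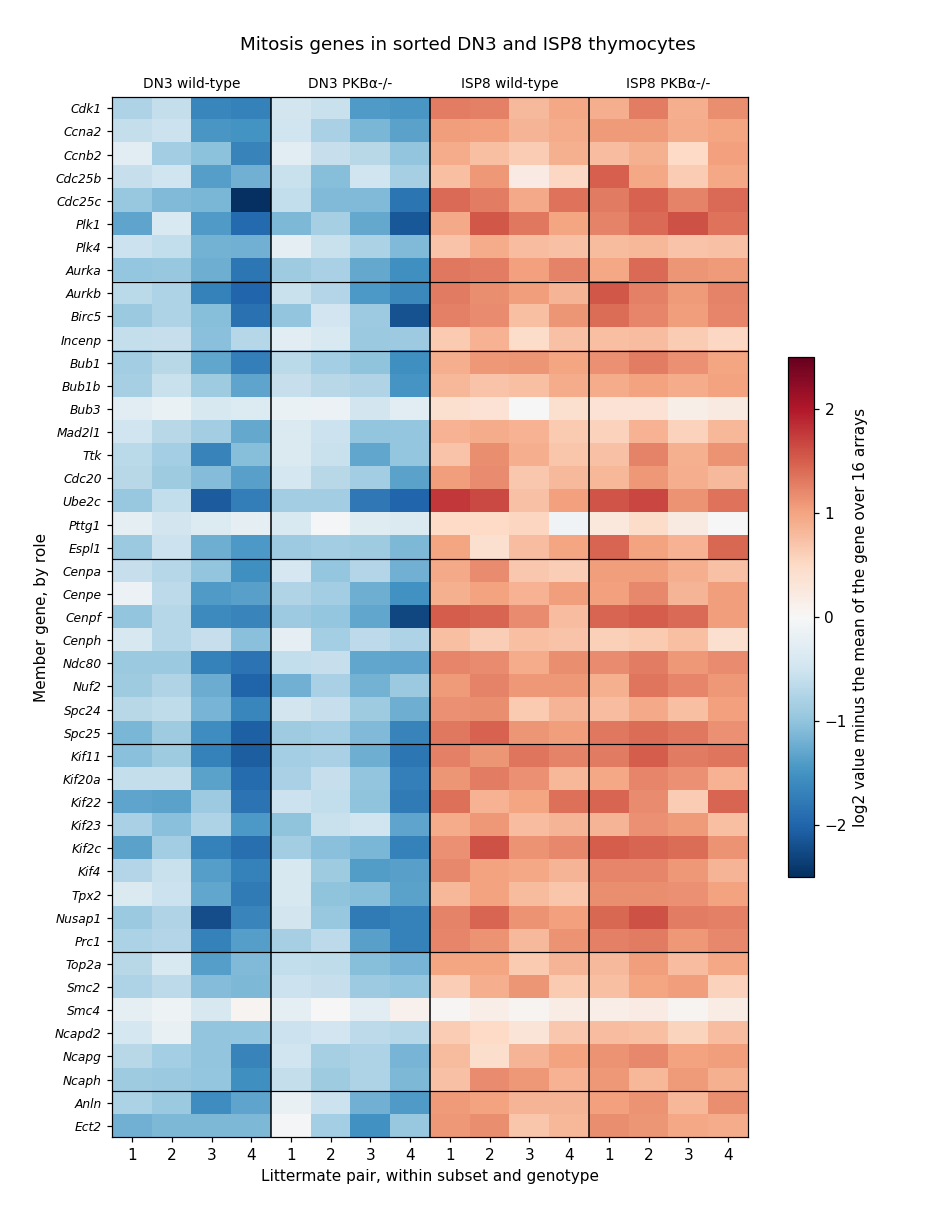
Log2 value of each of the 45 measured genes (rows, by role) in each of the 16 arrays (columns, by subset, genotype and littermate pair), centred on the mean of the gene, on a scale from blue for low to red for high. DN3 arrays are blue and ISP8 arrays red in nearly every row, with Smc4, Bub3 and Pttg1 the palest, and pairs 3 and 4 are the darkest blue among the DN3 arrays.

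Among the genes of mitotic entry, all 8 rose in both genotypes, with a median of 2.12 (4.35-fold) in wild-type and 2.00 (3.99-fold) in PKBα-/- cells. Cdk1, the central mitotic kinase, was at 1673, 1899, 929 and 885 in wild-type DN3 cells of pairs 1 to 4 and at 6932, 6891, 5016 and 5617 in the ISP8 cells of the same mice. In PKBα-/- mice it was at 2072, 1944, 1075 and 1047 in DN3 and at 5356, 6947, 5336 and 6407 in ISP8 cells. DN3 values of pairs 1 and 2 were thus close to 2-fold those of pairs 3 and 4 in either genotype, and every ISP8 value lay well above all of them. The change was 2.25 ± 0.13 (SE), or 4.76-fold, in wild-type (limma, adjusted p = 4.65e-08) and 2.03 ± 0.15, or 4.09-fold, in PKBα-/- cells (adjusted p = 2.25e-07). Aurka, the centrosomal Aurora kinase, had wild-type values of 613, 621, 509 and 339 in DN3 and 2964, 2901, 2428 and 2799 in ISP8 cells. Its values in PKBα-/- cells were 647, 682, 494 and 414 against 2338, 3173, 2573 and 2500.3. Pair 4 was again the lowest in DN3 cells but not in ISP8 cells, and Aurka rose 5.46-fold in wild-type (2.45 ± 0.15, adjusted p = 9.57e-08) and 4.80-fold in PKBα-/- cells (2.26 ± 0.13, limma).

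Plk1, the Polo-like kinase of mitotic entry and spindle assembly, was at 284, 547, 265 and 184 in wild-type DN3 and at 1366, 2091, 1778 and 1399.6 in wild-type ISP8 cells. PKBα-/- mice had 327, 402, 293 and 164 in DN3 and 1683, 1896, 2156 and 1818 in ISP8 cells. The highest DN3 value, 547 in pair 2, remained below the lowest ISP8 value, and the rise was 5.53-fold in wild-type (2.47 ± 0.18, limma adjusted p = 2.88e-07) and 6.67-fold in PKBα-/- cells (2.74 ± 0.18, adjusted p = 7.00e-08). Ccnb2, the B-type cyclin that was measured, was at 4875, 3227, 2924 and 1874 in wild-type DN3 and at 11264, 9936, 9212 and 10936 in wild-type ISP8 cells, a rise of 3.38-fold (1.76 ± 0.16, limma). The other entry genes were Cdc25c, a phosphatase that activates CDK1 (2.70 in wild-type and 2.52 in PKBα-/- cells), its relative Cdc25b (1.55 and 1.76), the A-type cyclin Ccna2 (1.99 and 1.96) and Plk4, the kinase of centriole duplication (1.67 and 1.44), and each of them passed in both genotypes.

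**Figure D2:**
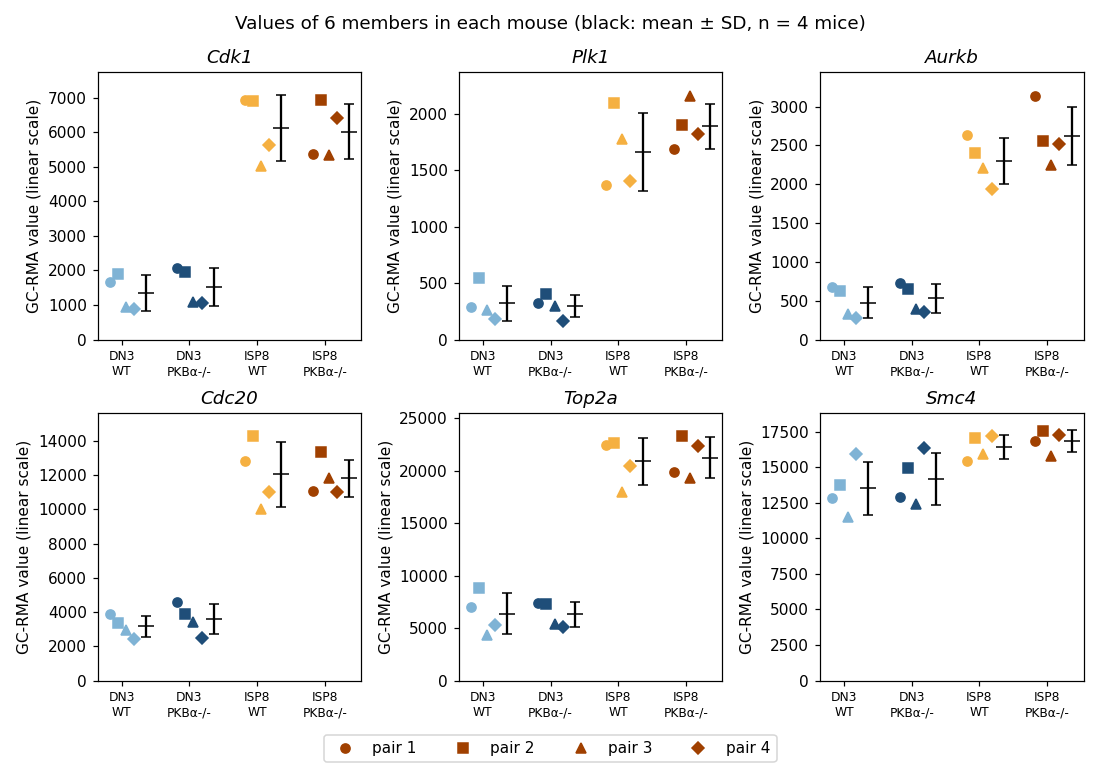
GC-RMA value on a linear scale of Cdk1, Plk1, Aurkb, Cdc20, Top2a and Smc4 in each mouse, by subset and genotype, with a marker for each littermate pair and the mean ± SD of 4 mice in black. In all panels but that of Smc4 the ISP8 values stand clear of the DN3 values in both genotypes. In the same panels the circles and squares of pairs 1 and 2 lie above the triangles and diamonds of pairs 3 and 4 within DN3 cells of either genotype.

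The chromosomal passenger complex corrects faulty attachments and guides cytokinesis, and its 3 measured subunits rose with a median of 2.24 (4.72-fold) in wild-type and 2.36 (5.15-fold) in PKBα-/- cells. Aurkb, its kinase, was at 674, 629, 333 and 272 in wild-type DN3 and at 2639, 2404, 2211 and 1939 in wild-type ISP8 cells. In PKBα-/- cells the values were 725, 646, 394 and 352 against 3140.0, 2556, 2249.8 and 2520.3. No DN3 value came near an ISP8 value, and the changes were 5.16-fold (2.37 ± 0.17, limma adjusted p = 2.98e-07) and 5.15-fold (2.36 ± 0.14). Birc5, or survivin, which tethers the complex to chromatin, rose from 1212, 1356, 1102 and 638 to 5582, 5271, 3886 and 5000.1 in wild-type mice, or 4.72-fold (2.24 ± 0.16, limma), and 5.16-fold in PKBα-/- mice. Incenp, the scaffold of the complex, moved less: wild-type values were 5960.4, 6096, 4402 and 5484 in DN3 and 14181, 16416, 12450.1 and 15067 in ISP8 cells, a 2.66-fold rise with a small error (1.41 ± 0.080, adjusted p = 4.05e-08), and the rise in PKBα-/- cells was 2.45-fold.

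Of the checkpoint, anaphase-promoting complex and separase genes all 9 rose, with medians of 1.83 (3.55-fold) and 1.79 (3.45-fold). The steepest was Ube2c, the ubiquitin-conjugating enzyme of the anaphase-promoting complex, with 801, 1007, 365 and 468 in wild-type DN3 and 5284, 4852, 2560.4 and 3168 in wild-type ISP8 cells. PKBα-/- mice had 850.3, 845, 445 and 389 in DN3 and 4576, 4919.8, 3378 and 3948 in ISP8 cells. Pairs 3 and 4 were lower than pairs 1 and 2 in both subsets here, and the rise within a mouse came to 6.23-fold in wild-type (2.64 ± 0.13, limma adjusted p = 9.88e-09) and 7.01-fold in PKBα-/- cells (2.81 ± 0.14). Cdc20, which activates the complex at anaphase, was at 3881, 3385, 2969 and 2428 in wild-type DN3 and at 12840.4, 14289, 10003 and 10994 in wild-type ISP8 cells. In PKBα-/- cells it was at 4602, 3869.8, 3434 and 2472 against 11070.2, 13352, 11819.5 and 11012. The order of the pairs in DN3 cells was the same in both genotypes, and the change was 3.82-fold (1.93 ± 0.098, limma adjusted p = 1.59e-08) in wild-type and 3.36-fold (1.75 ± 0.11) in PKBα-/- cells.

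Checkpoint kinases moved in the same way: Bub1 rose by 2.16 and 2.15 on the log2 scale in wild-type and PKBα-/- cells, Ttk by 1.93 and 1.79, and the pseudokinase Bub1b by 1.70 and 1.84. Mad2l1, the checkpoint protein that binds Cdc20, rose by 1.66 from 4792, 4179.5, 3686 and 2783 to 12413, 12795, 12284 and 10615 in wild-type mice. The weakest changes of this group were those of Bub3 and Pttg1. Bub3, which recruits the BUB kinases to kinetochores, had 8760.1, 9486, 8131 and 8412 in wild-type DN3 and 14009, 13774, 10546 and 14038 in wild-type ISP8 cells, so that pair 3 was nearest to the DN3 range, and it rose by 0.58 (limma adjusted p = 1.20e-04). Pttg1, or securin, the inhibitor of separase, went from 5909.5, 5122, 5553 and 6049 to 9887, 10007, 10158 and 6612, with pair 4 close to its DN3 values, a rise of 1.60-fold (0.68 ± 0.12, adjusted p = 7.04e-04) in wild-type and 1.43-fold in PKBα-/- cells. Espl1, which encodes separase itself, rose 3.55-fold in wild-type (1.83 ± 0.19) and 4.39-fold in PKBα-/- cells.

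Of the kinetochore genes all 8 rose, with medians of 2.16 (4.47-fold) and 2.13 (4.37-fold). Cenpf, a large kinetochore and nuclear matrix protein of G2 and M, had the smallest p in wild-type cells. Its values were 1423, 1703, 932 and 895 in DN3 and 8055, 7689, 6375 and 4805 in ISP8 cells, and in PKBα-/- mice 1503, 1447, 1141 and 584 against 7751, 8013, 7512 and 5780.0. Pair 4 was lowest in every group, yet its ISP8 values were far above all DN3 values, and the change was 5.53-fold (2.47 ± 0.11, limma adjusted p = 6.44e-09) in wild-type and 6.57-fold (2.72 ± 0.13) in PKBα-/- cells. Spc25, a subunit of the NDC80 complex that binds microtubules, was at 1419.8, 1695, 1068 and 757 in wild-type DN3 and at 7821, 8654, 6673 and 6446 in wild-type ISP8 cells. In PKBα-/- cells its values were 1682, 1727, 1451 and 977 against 7773, 8252, 7815 and 6895, and the changes were 6.22-fold (2.64 ± 0.12) and 5.38-fold (2.43 ± 0.10, limma). The 3 other subunits of the same complex rose as well, namely Ndc80 by 2.47 and 2.14, Nuf2 by 2.34 and 2.16 and Spc24 by 1.98 and 1.67 in wild-type and PKBα-/- cells. Cenpa, the histone H3 variant that marks centromeres, rose by 1.81 and 1.77, and Cenpe, a kinetochore kinesin, by 1.85 and 2.12. Cenph, part of the constitutive centromere network, was the weakest at 1.39 and 1.23.

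The kinesins and spindle proteins had no weak responder. All 9 rose, between 1.82 and 2.71 in wild-type cells, with medians of 2.22 (4.66-fold) and 2.16 (4.47-fold). Kif2c, the microtubule-depolymerising kinesin also called MCAK, changed most of all 45 genes in wild-type cells, from 697, 971, 547 and 477 to 3905, 5317, 3828 and 4076. PKBα-/- mice showed 960.3, 850.3, 803 and 548 in DN3 and 5007, 4811, 4655 and 3844 in ISP8 cells. Both genotypes thus had a wide gap between the subsets, 6.55-fold (2.71 ± 0.13, limma adjusted p = 1.04e-08) in wild-type and 5.88-fold (2.56 ± 0.10, adjusted p = 8.50e-10) in PKBα-/- cells. Prc1, which bundles the microtubules of the central spindle, rose from 1482, 1545, 804 and 989 to 6004, 5651, 4504 and 5616 in wild-type mice, or 4.66-fold (2.22 ± 0.13, limma adjusted p = 4.05e-08), and 5.09-fold in PKBα-/- mice. Nusap1, a microtubule-bundling protein, went from 1694, 1927, 701 and 1030.0 to 7613, 8919, 7019.8 and 6639 (6.05-fold in wild-type and 6.09-fold in PKBα-/- cells). Kif11, the kinesin that drives the spindle poles apart, rose by 2.66 and 2.53, the chromokinesins Kif22 by 2.503 and 2.16 and Kif4 by 2.09 and 2.11, the cytokinetic kinesins Kif20a by 2.21 and 2.07 and Kif23 by 1.92 and 1.79, and Tpx2, the activator of Aurora A, by 1.82 and 2.08.

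Condensin and topoisomerase genes included the smallest change of the 45 genes. All 6 rose, with medians of 1.74 (3.35-fold) and 1.68 (3.20-fold). Top2a, the topoisomerase that untangles sister chromatids, was at 6981, 8771, 4360.1 and 5257 in wild-type DN3 and at 22464, 22655, 17928 and 20396 in wild-type ISP8 cells. Its values in PKBα-/- cells were 7404, 7287, 5416 and 5065 against 19839, 23329, 19312 and 22349.6. The ISP8 values of all mice lay over 2-fold above every DN3 value, with changes of 3.39-fold (1.76 ± 0.10, limma adjusted p = 4.69e-08) and 3.41-fold (1.77 ± 0.093). Ncaph, a subunit of condensin I only, was at 1792, 1756, 1714 and 1157 in wild-type DN3 and at 5535, 7555, 7043 and 6101 in wild-type ISP8 cells, a rise of 4.12-fold (2.04 ± 0.12, limma adjusted p = 5.55e-08), and rose 3.51-fold in PKBα-/- cells. The condensin I subunits Ncapg and Ncapd2 rose by 1.81 and 1.18 in wild-type cells and by 1.91 and 1.30 in PKBα-/- cells.

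Smc4, the ATPase shared by both condensins, stood apart from its partner Smc2. Wild-type values of Smc4 were 12862, 13755, 11493 and 15904 in DN3 and 15464, 17064, 15927 and 17204 in ISP8 cells, and PKBα-/- values were 12892, 14975, 12443 and 16319.6 against 16856, 17512, 15756 and 17243. The DN3 value of pair 4 was within the ISP8 range in both genotypes, so the groups overlapped, although every mouse had more Smc4 in ISP8 cells. The change was 1.22-fold (0.29 ± 0.077, limma adjusted p = 0.0111) in wild-type and 1.20-fold (0.26 ± 0.065, adjusted p = 0.00792) in PKBα-/- cells. It did not pass after quantile normalization, with 0.12 in either genotype and adjusted p of 0.255 and 0.212, nor in wild-type cells without pair 3 (0.23, adjusted p = 0.0793). The other 2 probe sets of Smc4 gave 0.55 (limma adjusted p = 8.20e-05) and 0.26 (adjusted p = 0.106) in wild-type and 0.29 (adjusted p = 0.0149) and 0.52 (adjusted p = 7.86e-05) in PKBα-/- cells. Smc2, by contrast, rose by 1.72 and 1.58.

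Of the cytokinesis genes, Anln, which encodes the ring protein anillin, had 1034, 938, 609 and 721 in wild-type DN3 and 3729, 3614, 3234 and 3234 in wild-type ISP8 cells. It rose 4.27-fold (2.09 ± 0.12, limma adjusted p = 6.04e-08), and 3.67-fold in PKBα-/- cells. Ect2, the exchange factor that activates RhoA at the division plane, had nearly equal values in wild-type DN3 cells, at 397, 417, 417 and 418, and 1911, 2034, 1460.0 and 1617 in ISP8 cells. That made a rise of 4.23-fold (2.08 ± 0.14, adjusted p = 2.15e-07), against 3.69-fold in PKBα-/- cells, where the DN3 values were spread from 317 to 872.

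**Figure D3:**
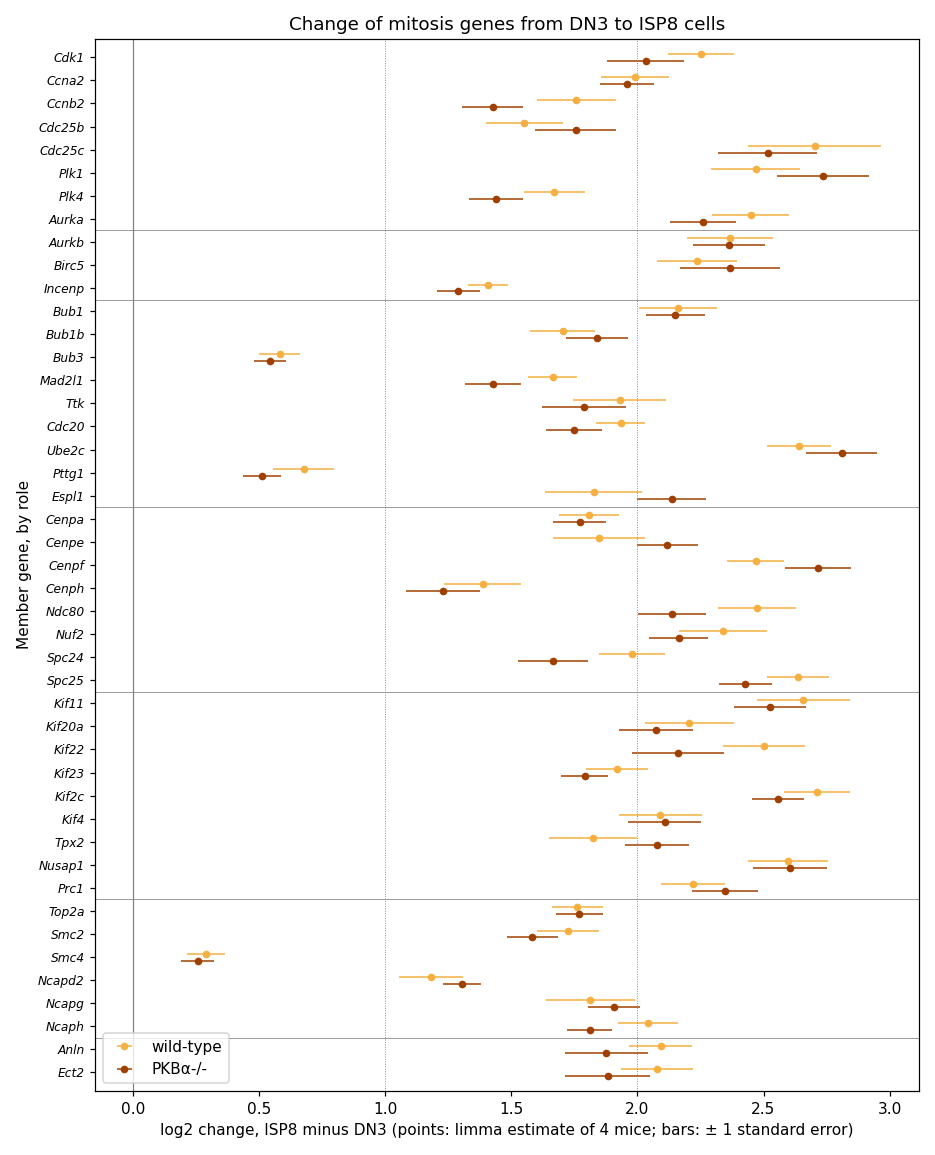
Log2 change from DN3 to ISP8 cells (limma, 4 mice of a genotype) of the 45 genes by role in wild-type (light) and PKBα-/- mice (dark), with bars of ± 1 standard error and dotted lines at 2-fold and 4-fold. Points lie between 0.26 and 2.81, with Smc4, Bub3 and Pttg1 on the left in both genotypes.

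The 45 genes had 99 probe sets in all, and of the 54 that were not chosen 52 were tested in wild-type cells. There 46 of them were higher in ISP8 cells and none was lower (limma), with a median of 1.72, and in PKBα-/- cells 46 of 51 were higher. Of the chosen probe sets 12 were of the x_at or s_at type, which can bind transcripts of further genes. For 11 of these genes (among them Cdc20, Aurkb and Kif2c) a probe set of another type was tested, and it rose in wild-type cells for all 11 and in PKBα-/- cells for 10. Genes that started higher in DN3 cells tended to change less: the wild-type change and the PKBα-/- DN3 level had an r of -0.66 and a rho of -0.52 across the 45 genes, as a description. The 23 genes whose window held both TTTGAA and CCAAT had a median wild-type change of 1.93 (0.58 to 2.66), and the 14 without both had 2.07 (0.68 to 2.71), so the ranges of the 2 sets were much alike.

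Further genes of mitosis, 110 that are not on the list above, showed where the pattern held and where it thinned out. Of 108 tested, 82 rose and 2 fell in wild-type cells (median 1.15), and of 106 tested in PKBα-/- cells 84 rose and 1 fell (limma). Entry regulators rose in 15 of 16 (median 1.46), for example the CDK subunit Cks2 (1.39), the centrosomal kinase Nek2 (2.47) and Ccnf (2.54), which encodes cyclin F. Kinetochore and centromere genes rose in 28 of 32 (median 1.28), among them the kinetochore scaffold Knl1 (2.28) and the cohesin protector Sgo2a (2.37). Spindle, centrosome and cytokinesis genes rose in 24 of 29 (median 1.47), with Hmmr at 2.59, Dlgap5 at 2.13 and Cep55, an abscission factor, at 1.83, while Ndel1, which regulates dynein, fell by 0.29. The pattern was thinner in the remaining groups. Of 15 subunits and partners of the anaphase-promoting complex, 4 rose (median 0.21), the strongest being its inhibitor Fbxo5 (1.99) and its chain-elongating enzyme Ube2s (1.56). Of 16 cohesin and condensin genes 11 rose and Esco1 fell (median 0.46), with the replication-coupled acetyltransferase Esco2 at 3.09, its partner sororin, Cdca5, at 1.70 and the condensin II subunit Ncapg2 at 1.67.

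Lists of markers of other cell types were summed in each array. The summed level of 5 γδ T and NK cell markers was between 809 and 4589 in DN3 arrays and between 326 and 720 in ISP8 arrays, most of it from Cd163l1. Of 5 tested in wild-type cells, 1 was higher in ISP8 cells and 2 were lower (limma). The sum of 5 B cell markers ran from 1101 to 1315 in DN3 and from 274 to 566 in ISP8 arrays, most of it from Cd79b, with Ebf1 or Cd79a at or under 20 in every array of a DN3 group. Of 4 B cell markers tested in wild-type cells, 1 was higher in ISP8 cells and 1 was lower. In PKBα-/- cells no γδ T, NK or B cell marker was higher in ISP8 cells. For 7 myeloid and dendritic markers the sums were 699 to 1444 against 581 to 970. Of these, 2 were higher and 2 lower in wild-type ISP8 cells (limma), and in PKBα-/- cells none was higher and 2 were lower. Mean wild-type Lyz2 went from 445 to 145 and Cd74 from 53.4 to 184. For 7 of thymic epithelium and stroma the sums were 443 to 1072 against 165 to 339. Most of the DN3 sum came from Epcam, with means of 607 in DN3 and 78.7 in ISP8 cells of wild-type mice. Psmb11 and Pdgfra had higher means in wild-type ISP8 than in wild-type DN3 cells. The 4 erythroid markers summed to 56.1 to 117 against 61.2 to 171, with Alas2 at or under 20 in all DN3 arrays. Markers of double positive and mature T cells, 7 of them, ran the other way, from 880 to 1098 in DN3 up to 1829 to 2728 in ISP8 cells, where Cd5 and Cd6 rose. The log2 ratio of the 3′ to the 5′ actin control probe sets is a sign of RNA length. It was lower in ISP8 than in DN3 cells by 0.65 in wild-type (4 of 4 mice) and by 0.23 in PKBα-/- mice (3 of 4). The same ratio of Gapdh did not follow it. ISP8 minus DN3 was -0.064 in wild-type and 0.11 in PKBα-/- mice, higher in 2 of 4 mice of either genotype. The part of these differences in the change of the mitotic genes was not tested.

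The comparison of PKBα-/- with wild-type littermates asked whether the mitotic program differed within a subset. In DN3 cells none of the 45 genes passed in either direction (limma, adjusted p 0.810 to 0.999), where 0.0177% of 33962 probe sets passed as higher and 0.0206% as lower, and none passed with the methods' paired t-test after adjustment. At an unadjusted p under 0.05 there were 8 genes, all higher in PKBα-/- cells, against 2.23% of all probe sets. The median change of the 45 genes was 0.13 (1.09-fold), 41 were above 0 against 48.1% of all probe sets, and 14 were higher in 4 of 4 pairs against 5.51%. The median of the genes in pairs 1 to 4 was 0.16, 0.03, 0.24 and 0.18, and 36, 26, 38 and 33 of the 45 genes were above 0. As the genes were read from the same arrays, they are not independent of each other. For all 45 the 95% interval excluded a 2-fold change in either direction, and for 38 it excluded 1.5-fold.

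The smallest p in DN3 cells belonged to Ccnb2, whose PKBα-/- values were 4922, 3957, 3684 and 2989.9 against 4875, 3227, 2924 and 1874 in the wild-type littermates. The PKBα-/- mouse was higher in 4 of 4 pairs, by little in pair 1 and most in pair 4, and the groups overlapped (0.33 ± 0.098, 1.26-fold, limma adjusted p = 0.810). Kif22, which carries chromosome arms away from the poles, had 4185, 3928, 3033 and 1767 against 2417, 2401.3, 3244 and 1682, so that the difference lay in pairs 1 and 2 (0.37 ± 0.13, adjusted p = 0.972). Ndc80, the subunit that gives the NDC80 complex its name, was at 870.2, 891, 543 and 532 against 706, 698, 413 and 374, higher in 4 of 4 pairs by a similar amount (0.39 ± 0.13, limma adjusted p = 0.972). The others at this level were Spc25 at 0.27, Anln at 0.32, Plk4 at 0.22, Ncaph at 0.23 and Ncapg at 0.23. On the other side, Cenpe was at 1141, 1049, 823 and 674 against 1735, 1215, 715 and 752 in wild-type cells (-0.19 ± 0.13, higher in 1 of 4 pairs). Cenpf at -0.12 and Plk1 at -0.065 were higher in 2 of 4 pairs each, and their sign turned, to 0.045 without pair 4 and to 0.062 without pair 2.

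**Figure D4:**
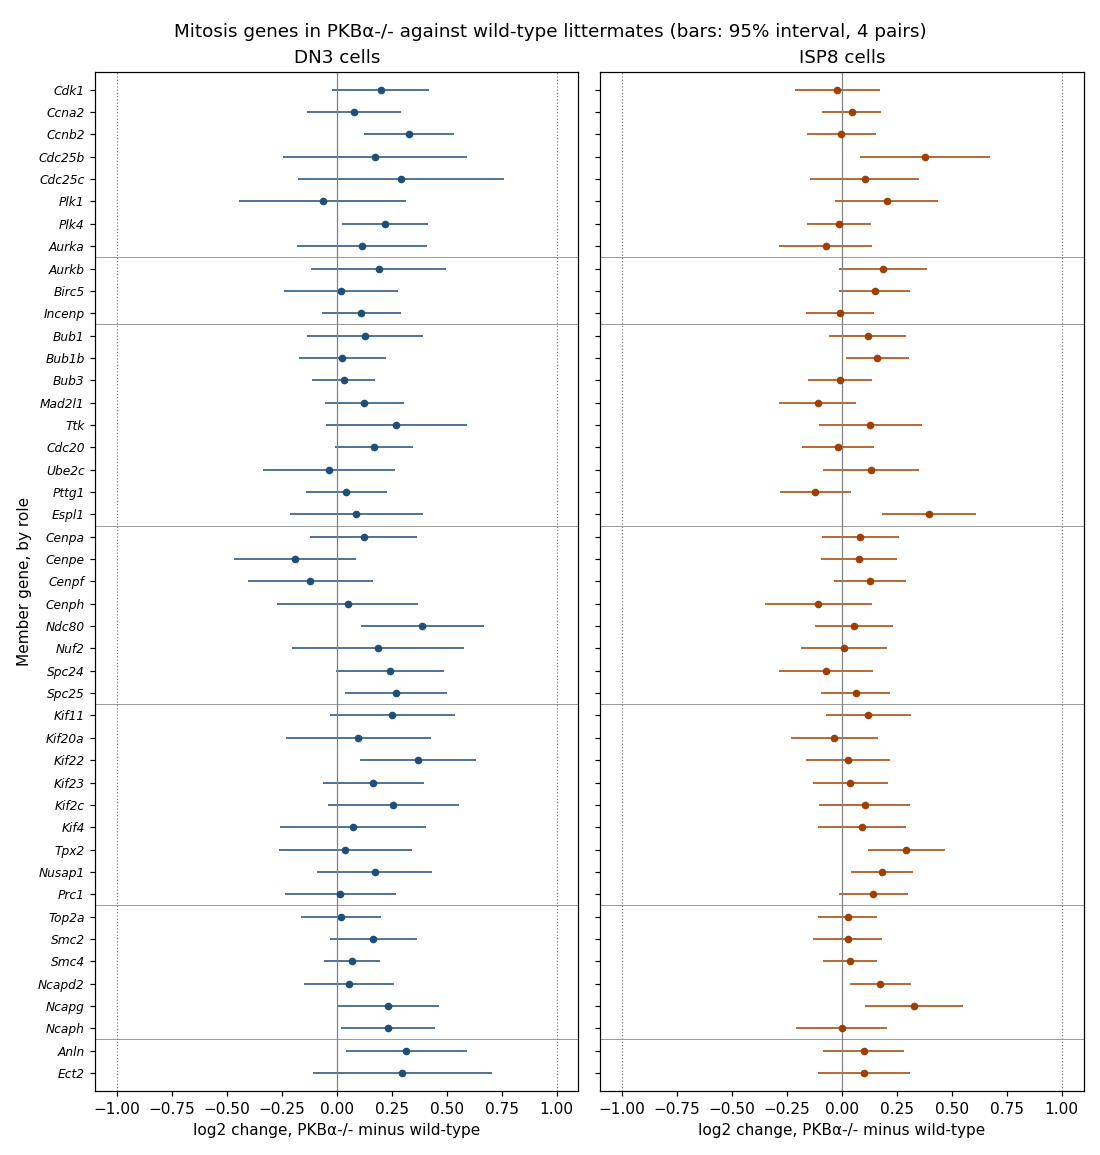
Log2 difference between PKBα-/- mice and wild-type littermates (limma, 4 pairs) of the 45 genes in DN3 (left) and ISP8 cells (right), with 95% intervals and dotted lines at 2-fold. All intervals lie within 2-fold, and 41 points in DN3 and 32 in ISP8 cells lie to the right of 0.

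In ISP8 cells again none of the 45 genes passed (limma, adjusted p 0.538 to 0.9999, and none with the methods' t-test after adjustment), where 0.00294% of 34016 probe sets passed as higher and 0.0118% as lower. There were 7 genes at an unadjusted p under 0.05, all higher in PKBα-/- cells, against 3.46% of all probe sets. The median was 0.078 (1.06-fold), with 32 genes above 0 against 52.6% of all, and 11 genes higher in 4 of 4 pairs against 7.96%. Here too the genes were read from the same arrays and are not independent of each other. All 45 intervals excluded a 2-fold change and 43 excluded 1.5-fold. The groups were apart for 2 genes, Tpx2 and Ncapg, against 1.63% of all probe sets.

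Espl1 had the smallest p in ISP8 cells, with 3471, 2549.5, 2321 and 3446 in PKBα-/- against 2531, 1686, 2181 and 2529.6 in wild-type mice. It was higher in 4 of 4 pairs and least so in pair 3 (0.40 ± 0.098, 1.32-fold, limma adjusted p = 0.538). Tpx2 was at 3617, 3628, 3578 and 3243 against 2879, 3231, 2786 and 2606, with every PKBα-/- value above every wild-type value by a small margin (0.29 ± 0.082, adjusted p = 0.658). Ncapg was at 5852, 6125, 5369.7 and 5507 against 4608, 3624, 4791 and 5354, and pair 2 differed most (0.33 ± 0.10, limma adjusted p = 0.753). Cdc25b at 0.38, Nusap1 at 0.18, Ncapd2 at 0.18 and Bub1b at 0.16 were the others at this level. On the other side, Pttg1 was at 8489, 9681, 8266 and 6985 against 9887, 10007, 10158 and 6612 (-0.12 ± 0.075). Mad2l1 was at 10068, 12406, 10122 and 12072 against 12413, 12795, 12284 and 10615 (-0.11 ± 0.081), and only pair 4 was higher in the PKBα-/- mouse. Cenph, at 1022, 1063, 1128 and 885 against 1128, 1038, 1135 and 1102 (-0.11 ± 0.11), was higher in pair 2 alone, and Pttg1, like Mad2l1, in pair 4 alone. The 3′ to 5′ ratio of actin was higher in PKBα-/- than in wild-type ISP8 cells in 4 of 4 pairs, by 0.24 on average. In DN3 cells it was lower by 0.17 on average. That of Gapdh was higher by 0.10 in ISP8 and lower by 0.074 in DN3 cells, with 2 of 4 pairs higher in each. The part of either ratio in these small differences was not tested.

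Whether the genotype difference itself differed between the subsets was tested over all 16 arrays. None of the 45 genes passed (limma, adjusted p 0.961 to 0.9995), none had an unadjusted p under 0.05, and none passed with the methods' t-test after adjustment, while 0% of 36835 probe sets passed and 1750 had an unadjusted p under 0.05. The median over the genes of the ISP8 minus the DN3 genotype difference was -0.13, and it was -0.053 without pair 4, -0.058 without pair 3, -0.079 without pair 1 and -0.069 when all probe sets of a gene were averaged. The difference was below 0 in 4 of 4 pairs for 8 genes, against 6.71% of all probe sets, namely Ndc80, Spc24, Mad2l1, Ccnb2, Plk4, Spc25, Kif22 and Cdk1. Ndc80 had the smallest p (-0.34 ± 0.22, unadjusted p = 0.145, limma). This comparison uses the same arrays as those within the subsets.

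The values above also differed between litters, and a test of the pairs was added after this had been seen. In the DN3 fit, which keeps the genotype apart, 36 of the 45 genes differed between the 4 littermate pairs (limma moderated F, adjusted p under 0.05), against 8.37% of all probe sets. The gap between the highest and the lowest pair had a median of 0.84 on the log2 scale (1.79-fold) over the genes and of 0.71 over all probe sets. Pair 4, 5 weeks old, was the lowest for 35 genes and pair 3, 2 weeks old, for the other 10, while pair 1 was the highest for 23 and pair 2 for 20. In 39 genes both 3-week-old pairs lay above both other pairs. The order of the pairs was not counted over all probe sets, so it cannot be called particular to the mitotic genes. The mean of the 45 centred log2 values in pairs 1 to 4 was -0.75, -0.70, -1.24 and -1.47 in DN3 cells of wild-type mice, and -0.58, -0.70, -1.02 and -1.30 in those of PKBα-/- mice. The genes come from the same 8 arrays and are not independent of each other, and the count fell to 20 when all probe sets of a gene were averaged and to 18 without pair 4.

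Cdk1 had the smallest p of the 45 genes in this test, and the pair means, both genotypes together, spanned 0.997 on the log2 scale (limma adjusted p = 1.80e-04). Nusap1, at 1694, 1927, 701 and 1030.0 in DN3 cells of the wild-type mice and 2355, 1686, 954 and 1002 in those of the PKBα-/- mice, spanned 2.44-fold (adjusted p = 2.43e-04). Birc5, at 1212, 1356, 1102 and 638 in DN3 cells of the wild-type mice and 1164, 1653, 1242 and 509 in those of the PKBα-/- mice, spanned 2.63-fold (adjusted p = 3.11e-04). In Birc5 pair 4 alone was low, while in Cdk1 and Nusap1 pairs 3 and 4 were. By role the genes that passed were 9 of 9 kinesins and spindle proteins, 7 of 8 entry genes, 3 of 3 passenger subunits, 6 of 9 checkpoint and anaphase genes, 6 of 8 kinetochore genes, 4 of 6 condensin and topoisomerase genes and 1 of 2 cytokinesis genes. Pttg1 spanned 0.069 (adjusted p = 0.975), and Bub3, Smc2, Ncaph, Cenph, Espl1, Nuf2, Ect2 and Cdc25b did not pass either. Among other genes 15 of 33 of DNA replication differed between the pairs in DN3 cells, 27 of 106 further genes of mitosis did, and 2 of 10 DN3 markers did. Markers of other cell types moved with the pairs as well, as 2 of 3 γδ T and NK cell markers, 2 of 7 myeloid and dendritic markers, 1 of 4 stromal markers, 2 of 5 ISP8 markers and 1 of 6 double positive and mature T cell markers passed, with median gaps between pairs of 1.77, 1.62, 1.56, 1.03 and 0.85 on the log2 scale. None of 3 B cell and 2 erythroid markers passed, with median gaps of 1.89 and 1.29. Their part in the difference between the pairs was not tested.

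In ISP8 cells the gaps between pairs were narrower. None of the 45 genes passed (limma moderated F, 2 with robust moderation), where 0.220% of all probe sets did, and 22 had an unadjusted p under 0.05, against 9.61% of all. The median gap between the highest and the lowest pair was 0.31 (1.24-fold), against 0.61 over all probe sets. The mean of the centred values was 0.99, 1.04, 0.82 and 0.87 in wild-type and 1.03, 1.11, 0.93 and 0.97 in PKBα-/- cells. The spread between mice was wider in DN3 cells, where the median SD of the log2 values over the 45 genes was 0.44 in DN3 cells of wild-type and 0.38 in those of PKBα-/- mice, against 0.19 and 0.15 in ISP8 cells. Probe sets at the same range of levels had 0.25, 0.22, 0.16 and 0.13.

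The size of the change from DN3 to ISP8 cells within a mouse differed between the pairs as well. It is taken from the same DN3 values, so it is not a separate result. Its median over the genes was 1.73, 1.87, 2.09 and 2.43 in wild-type mice of pairs 1 to 4 and 1.63, 1.86, 2.03 and 2.33 in PKBα-/- mice. Pair 4 had the largest change for 36 of the 45 genes, a count that was not made over all probe sets. With a test of the pairs in this change, 5 genes passed (limma moderated F), against 0.388% of all probe sets: Kif22 (adjusted p = 0.00455), Birc5 and Ccnb2 (0.0111 each), Nusap1 (0.0345) and Bub1b (0.0481). That count ranged from 1 without pair 4 to 18 without pair 2, and with other settings from 2 to 9. The 3′ to 5′ ratio of actin, 2.61 to 3.10 in DN3 arrays of wild-type and 2.499 to 3.11 in those of PKBα-/- mice, was lowest in pair 3 in both genotypes. That of Gapdh was lowest in pair 4 of the wild-type DN3 arrays, at 1.71. In the PKBα-/- DN3 arrays it was lowest in pair 1, at 1.41, and highest in pair 3, at 2.10. Litter, age and array order cannot be told apart from the pair. Pairs 1 and 4 were female and pairs 2 and 3 male, and the part of sex was not tested. The number of cells sorted, which was equal within a pair only, was not tested.

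**Figure D5:**
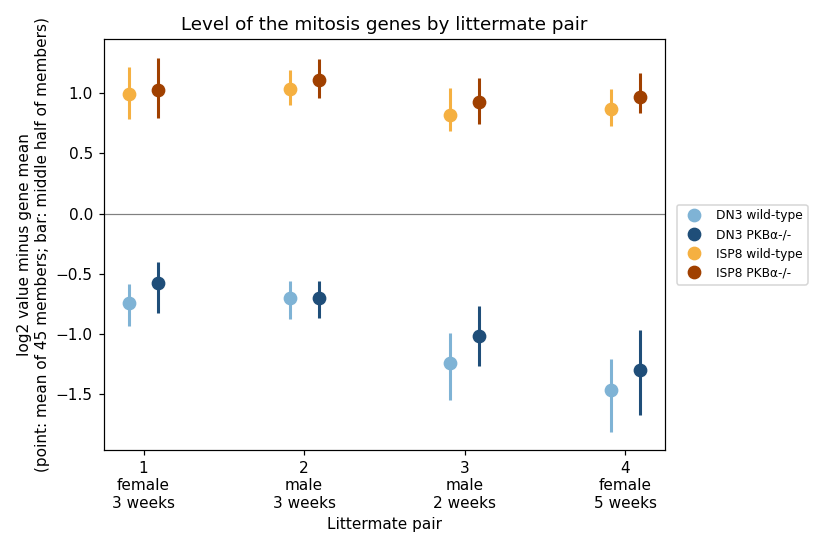
Mean over the 45 genes of the log2 value minus the mean of the gene, for each littermate pair with its sex and age, by subset and genotype, with bars from the lower to the upper quartile of the genes. DN3 points fall from between -0.75 and -0.58 in pairs 1 and 2 to -1.47 in wild-type and -1.30 in PKBα-/- cells of pair 4, and ISP8 points stay between 0.82 and 1.11.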

How the data were processed

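RNA of sorted DN3 and ISP8 thymocytes, purified on PicoPure columns, was amplified in 2 cycles and hybridised to Affymetrix mouse genome 430 2.0 arrays by the authors, who summarised the probes with GC-RMA in Refiner 3.1. The deposited values are intensities on a linear scale, 1 per probe set and array, with no read depth, and their log2 was taken here without an added constant. GC-RMA normalises the probes between arrays, so a change shared by most transcripts is not kept. Of 45101 probe sets, 34958 carried 1 gene symbol, 932 several and 9211 none, by the platform annotation.

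A probe set was tested where a value exceeded 20 in at least 1 array of a pair, or of a mouse, in 3 of 4. limma 3.58.1 in R 4.3.3 (lmFit, eBayes with trend) was used with the littermate pair, or the mouse, as a block, and the Benjamini-Hochberg adjustment ran over all probe sets tested. The pairing came from the labels. Over 31977 probe sets, deviations from the group means correlated at 0.081 to 0.148 between littermates in DN3 cells and at 0.027 to 0.059 in ISP8 cells, and at 0.049 to 0.100 between the subsets of a mouse, while different pairs or mice reached at most 0.055. Differences between pairs were tested with the moderated F of the pair terms in the same fits, a test chosen after the values had been seen. The steps were tested on simulated data. Figures and summaries used Python 3.11.15.

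The 45 genes, the other lists and the tests were chosen with earlier results of these data known. Values by mouse are given for up to 2 genes of each role with the smallest p in wild-type cells, up to 3 in either direction for each genotype comparison, and Cdk1, Plk1, Aurkb, Cdc20 and Top2a. Of the other lists up to 3 genes were named, but more of the G1 list and of the ISP8 markers. Smc4, Bub3 and Nusap1, the values of Pttg1, Mad2l1 and Cenph across the subsets, and Ndel1 and Esco1 were chosen after their values were seen. Promoter windows were matched by symbol.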

Additional observations from a re-analysis of the deposited data

Results flagged for a closer look

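In 9 of 180 groups of 4 mice, or 5% of them, 1 mouse lay far from the other 3 by Dixon's test at 95%, which chance alone gives for about 1 in 20 groups. In wild-type DN3 cells Cdc25c was lowest in pair 4, at 69.6 against 192 to 221 in the others, Ncaph was lowest in the same mouse at 1157 against 1714 to 1792, and Ect2 was lowest in pair 1 at 397 against 417 to 418, a gap of little size in a narrow range. In PKBα-/- DN3 cells Espl1 was lowest in pair 4, at 587 against 682 to 693. In wild-type ISP8 cells Bub3 was lowest in pair 3 at 10546 against 13774 to 14038, Pttg1 was lowest in pair 4 at 6612 against 9887 to 10158, and Nuf2 was highest in pair 2 at 2627 against 2317 to 2346. In PKBα-/- ISP8 cells Tpx2 was lowest in pair 4 at 3243 against 3578 to 3628, and Ncapd2 was lowest in pair 3 at 9056 against 10426 to 10532. Pair 4 was the lowest in 5 of these 9 groups.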

How the results depend on the processing

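Without a filter, with the filter raised to 100, with a constant of 20 added, with robust moderation, in 1 fit of all 16 arrays and with no replicate block, all 45 genes were higher in ISP8 cells in both genotypes and none differed between genotypes. Quantile normalization, which moved the median change of all probe sets in wild-type cells from -0.087 to 0.032 and the share of higher calls from 40.2% to 50.03%, left 44 in both genotypes, without Smc4, and averaging the probe sets of a gene left 44 in PKBα-/- cells, without Pttg1. The methods' paired t-test kept 34 and 36 genes after adjustment. Leaving out a pair moved the median over the genes between 1.92 and 2.11 in wild-type, 1.84 and 2.10 in PKBα-/- cells, 0.11 and 0.21 for the genotype difference in DN3 and 0.043 and 0.085 in ISP8 cells, and -0.14 and -0.053 for the difference between them, and Smc4 did not pass in wild-type cells without pair 3. The DN3 genotype difference of Cenpf ranged from -0.26 to 0.045 and that of Plk1 from -0.16 to 0.062, turning sign without pair 4 and pair 2. The genes that differed between pairs were 20 in DN3 cells with the mean over probe sets, and 18 to 34 with a pair left out. In ISP8 cells they were 2 with robust moderation, and 0 to 3 with a pair left out (3 without pair 2). For the change between subsets they were 3 with the filter at 100, 9 with the added constant, 8 after quantile normalization, 2 with the mean over probe sets, and 1 to 18 with a pair left out (18 without pair 2, 1 without pair 4). Taking the littermate or mouse block out of the fit changed no call of the 45 genes. Signal over background limited low values, and 4 mice a group limited the genotype comparisons.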

Other observations

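Genes of other phases of the cell cycle moved with the mitotic genes. Of 33 DNA replication genes tested, 32 were higher in ISP8 than in DN3 cells in both genotypes (limma), with a median of 0.89 on the log2 scale in wild-type and 0.79 in PKBα-/- cells. Examples in wild-type cells were Rrm2, a subunit of ribonucleotide reductase, at 1.71, Cdc6, which loads the replicative helicase, at 1.48, and Rfc4, a clamp loader subunit, at 1.33. Regulators of G1 were divided: of 18 tested in wild-type cells 11 were higher and 3 lower. Ccne1, which encodes cyclin E1, rose by 2.98, while Ccnd2, a D-type cyclin, fell by 3.41, Cdkn1a, the CDK inhibitor p21, fell by 3.60, and Cdk6 fell by 1.47. No gene of either list passed for the genotype difference in DN3 or ISP8 cells at an adjusted p under 0.05 (limma). Genotype differences in the G1 list ran from -0.52 to 0.35 in DN3 and from -2.78 to 0.48 in ISP8 cells. The lowest value in both subsets was that of Cdkn1a. Those of the replication list ran from -0.049 to 0.31 and from -0.21 to 0.15. By an unadjusted paired test with a fold cut-off, the paper lists Rrm2 as higher and Cdkn1a as lower in PKBα-/- DN3 cells. It also lists Ccnd2 as lower in PKBα-/- ISP8 cells. The fold it gives for Rrm2 is larger than any DN3 genotype difference of the replication list here. Its probe sets for these genes were not compared with those used here.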
